A study of Mus musculus with 2 samples.

Results

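The nuclear genes for the subunits of respiratory complexes I to V were described in single cells of the retinal pigment epithelium (RPE), choroid and sclera of the mouse. Genes were taken by symbol: those starting with Ndufa, Ndufb, Ndufc, Ndufs, Ndufv, Uqcr, Cox4 to Cox8 or Atp5, and Sdha, Sdhb, Sdhc, Sdhd and Cyc1. Of the 32285 genes in the files, 95 matched, and 93 of these held at least 50 unique molecular identifiers (UMIs, tags that mark single RNA molecules) over both libraries. Cox7b2 held 1 UMI and Cox8c held 0, and both were left out. Complex I was represented by 37 genes, complex II by 4, complex III by 9, complex IV by 18 and complex V by 17, together 85 subunit genes. The symbols also brought in 8 Ndufaf genes, which encode factors that assemble complex I and are not part of it, and these were kept apart. By annotation 92 of the genes were protein coding, and Ndufb1-ps was listed as a long noncoding RNA that shares a promoter.

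The respiratory chain sits in the inner mitochondrial membrane. Complexes I and II pass electrons from NADH and succinate to ubiquinone, complex III passes them on to cytochrome c, and complex IV hands them to oxygen, while the ATP synthase (complex V) makes ATP from the proton gradient that complexes I, III and IV build up. Most subunits are encoded in the nucleus and imported, and the rest, among them the membrane core of complex I, are encoded in mitochondrial DNA. The RPE, the pigmented layer behind the photoreceptors, is known for high oxidative metabolism. Several complex IV subunits come in pairs of isoforms that differ between tissues.

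Both groups were male C57BL/6J mice of 3 months of age, killed 7 days after a subretinal injection of 1 µl. Control mice received PBS, and Dox mice received doxorubicin, a DNA-damaging drug, at 100 ng/µl, a low dose. The retina was removed, and the RPE was dissociated together with choroid and sclera. Cells from 10 eyes of 5 mice were pooled into a single library per group, without replication. Subretinal injection reaches only part of the RPE, so treated and untreated RPE cells share the Dox library. Both libraries also held cells of the other dissociated tissue.

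After the cell filters, 20180 of 20381 deposited control cells and 15426 of 15649 Dox cells were kept, with a median of 4495 and 4995 UMIs per cell. RPE cells were those with at least 10 UMIs of Rpe65, the isomerase of the visual cycle: 1526 in control (control RPE), with a median of 16013.5 UMIs, and 1630 in Dox (Dox-RPE), with 18115.5. All 10 RPE marker genes were detected in them, at a summed 104345 CPM (UMIs of a gene scaled to a library total of 1000000) in control and 105402 in Dox. Fibroblast markers reached 7.97% of their level in fibroblast-like cells in control RPE and 5.06% in Dox-RPE, melanocyte markers 9.04% and 5.73% of their own class, and macrophage markers 0.972% and 0.528%. The fibroblast marker Kera was at 0 in the RPE cells of both libraries. Of the RPE cells, 1277 in control and 1292 in Dox fell in the RPE-like cluster, and most others in a cluster led by Gm26917. A further 252 control and 226 Dox cells of these 2 clusters held under 10 Rpe65 UMIs and were left out of every class described. Their median was 2472 and 2505 UMIs, with Rpe65 at 1105 and 1178 CPM, so the limit favoured cells with many UMIs. The libraries shared 441 cell barcodes, which 36 control RPE and 49 Dox-RPE cells held. A level is given as CPM of the summed UMIs of a class in 1 library. Every 95% interval is exact (Poisson for levels, binomial for shares, conditional binomial where 2 counts are divided) and covers counting error only, and no test between conditions was possible. The drug and the library cannot be told apart. The kit counts 1 end of each molecule, so that CPM of different genes can be compared without dividing by length. Reads that also fit pseudogenes may be missing for some genes more than for others, which was not corrected.

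Control RPE devoted 4.48% of all UMIs to the 85 subunit genes, or 44836 CPM (44755 to 44917). Dox-RPE stood at 4.51%, or 45101 CPM (45027 to 45176). No other class reached this level in either library. The 7 main classes were the RPE, fibroblast-like, melanocyte-like, smooth muscle-like, macrophage-like, NK or T-like and endothelial-like cells, the last 6 named from marker genes. The list for the smooth muscle-like class held markers of smooth muscle or pericytes, and the 2 cell types were not separated. Smooth muscle-like cells followed with 33280.4 CPM in control and 32836 in Dox, then melanocyte-like cells with 30629 and 31319. Fibroblast-like cells, the most abundant class, had 21879 and 21672 CPM, and the summed level of control RPE was 2.05-fold theirs. Macrophage-like cells were lowest, with 19185 and 19624 CPM. The order of these 5 classes was the same in both libraries.

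The same held cell by cell. The median RPE cell had 4.40% of its UMIs in subunit genes in control and 4.44% in Dox, against 2.14% in both libraries for fibroblast-like cells. Thinned to 2000 UMIs per cell, which left out 32 control RPE and 41 Dox-RPE cells, the RPE medians were 4.30% and 4.35%, and the fibroblast-like medians 2.15% and 2.15%. The RPE cells were spread widely, from 1.16% at the 5th to 5.86% at the 95th percentile in control and from 0.908% to 5.78% in Dox.

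**Figure D1:**
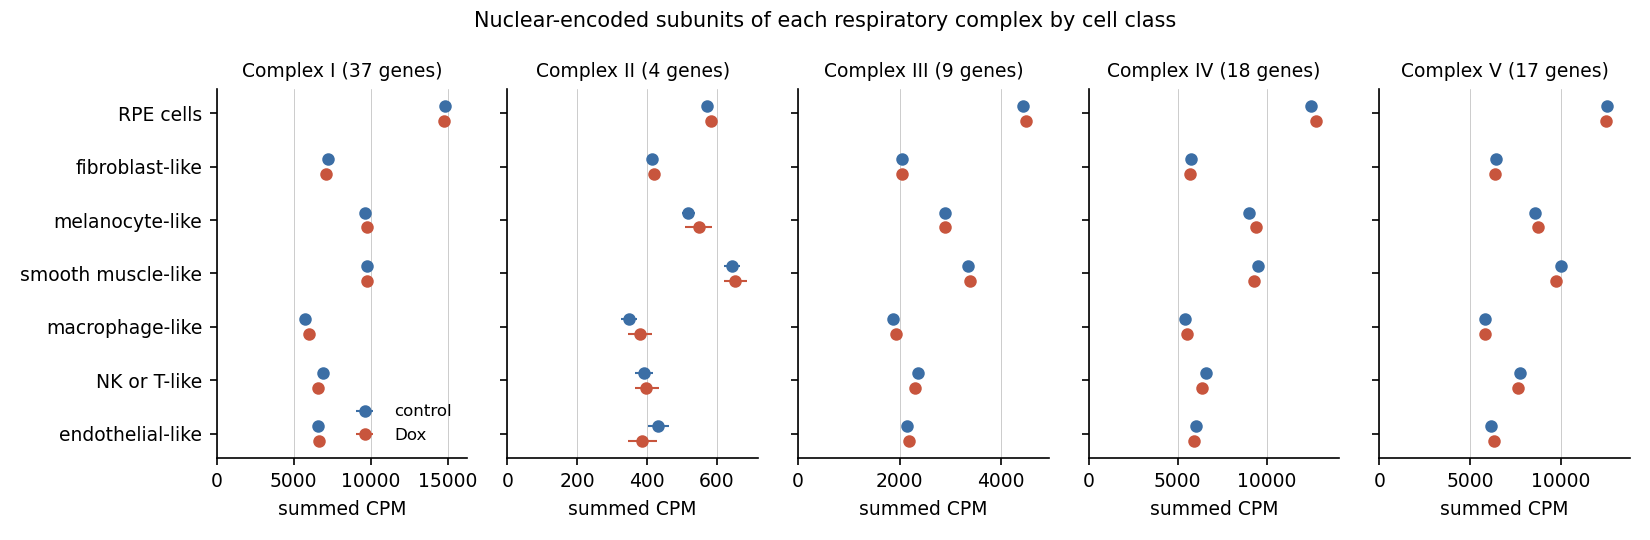
Summed CPM of the nuclear-encoded subunit genes of each complex (x axis, 1 panel per complex) in 7 cell classes (rows), with control in blue and Dox in red and lines for the 95% Poisson interval of counting error. RPE cells lie furthest to the right in complexes I, III, IV and V, while smooth muscle-like cells lie furthest to the right in complex II, at 643 and 652 CPM.

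Complex by complex, the RPE was not equally far above the other classes. Complex I summed to 14806 CPM in control RPE and 14757 in Dox-RPE, which was 2.05-fold and 2.07-fold the level of fibroblast-like cells. Complex III, with 4440.2 and 4486 CPM, was 2.17-fold and 2.20-fold above them, and complex IV, with 12468 and 12785 CPM, 2.16-fold and 2.24-fold. Complex V summed to 12552 and 12491 CPM, 1.95-fold and 1.96-fold above. Complex II, which also serves the citric acid cycle, stood apart from the other 4. Its 4 genes summed to 569.9 and 583 CPM in RPE, 1.37-fold and 1.39-fold above fibroblast-like cells, and to 0.886 and 0.894 times the level of smooth muscle-like cells. The plot of summed CPM by class shows both patterns.

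Gene by gene, 92 of the 93 genes could be compared between RPE and each other class, Cox6a2 being at or under 2 UMIs in RPE. Against fibroblast-like cells, 58 of 92 were at least 1.5-fold higher in RPE in both libraries, and 22.2% of the 14960 genes tested were. In the other direction 4 were at least 1.5-fold lower, against 35.9% of all genes. The median log2 ratio of RPE over fibroblast-like cells was 0.78 in control and 0.82 in Dox, where all genes had -0.25 and -0.26. The genes higher in RPE included 26 of complex I, 1 of complex II, 5 of complex III, 11 of complex IV, 12 of complex V and 3 assembly factors. Against smooth muscle-like cells the count was 23 higher and 5 lower, close to the 22.5% of all genes that were higher and under the 32.5% that were lower. Against melanocyte-like cells 26 were higher (all genes 15.6%) and 3 lower (34.2%). Macrophage-like cells gave 69 higher (25.9%) and 2 lower (29.7%), NK or T-like cells 56 (25.8%) and 2 (31.5%), and endothelial-like cells 59 (21.2%) and 3 (33.1%). RPE was the highest of the 7 main classes for 57 of the 93 genes in control, and for 53 of these also in Dox. Smooth muscle-like cells were highest for 26 genes in control, 24 of them again in Dox. This ranking was not made over all genes, so no share stands beside these counts.

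Within complex I the levels ran from 1107 CPM for Ndufb11, a subunit of the membrane arm on the X chromosome (20615326 to 20617619 on GRCm38, as all positions here), down to 48.7 CPM for Ndufs1, an iron-sulfur protein of the arm that reaches into the matrix (chromosome 1, 63143596 to 63176833), in control RPE. In Dox-RPE the same genes had 1058 and 52.4 CPM. Ndufv3, an accessory subunit near the site of NADH oxidation (chromosome 17, 31520115 to 31531331), had the largest excess over fibroblast-like cells in the complex. It stood at 1007 CPM in control RPE and 1023 in Dox-RPE against 231 and 235 in fibroblast-like cells, a log2 ratio of 2.12 in both libraries. The accessory membrane subunit Ndufc2 followed a similar pattern, with 662 and 669 CPM against 226 and 234.

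The subunits that carry out electron transfer were less uneven between classes. The 7 nuclear-encoded core subunits (those that carry or surround the redox centres, a split made after the values had been seen) summed to 1144 CPM in control RPE and 1147 in Dox-RPE, against 919 and 903 CPM in fibroblast-like cells. The 30 accessory subunits summed to 13662 and 13610.1 CPM against 6305 and 6222, or 2.17-fold and 2.19-fold above. Of the core subunits 1 of 7 was past 1.5-fold over fibroblast-like cells in each library. Of the accessory subunits 25 of 30 were in control and 26 of 30 in Dox. Over macrophage-like cells the core sum was 1.73-fold and 1.76-fold as high, with 4 and 5 of 7 past 1.5-fold. NK or T-like cells gave 1.59-fold and 1.52-fold, with 4 of 7 in each library. Endothelial-like cells gave 1.38-fold and 1.54-fold, with 3 of 7, and melanocyte-like cells 1.03-fold and 1.02-fold, with 0 of 7. No share over all genes was made for these counts in single libraries. Against smooth muscle-like cells the core sum was 0.904 and 0.900 times as high and the accessory sum 1.61-fold as high in both libraries. Ndufv1, which binds NADH and the flavin, had 101 and 103 CPM in RPE, 123 and 119 in fibroblast-like cells and 173 in smooth muscle-like cells of both libraries. Ndufv1 thus went against the sum of its complex. Ndufa8 had its highest level outside both classes, in endothelial-like cells, with 222 and 227 CPM against 193 and 199 in RPE.

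The 8 assembly factors were all lowly expressed, from 130.5 CPM for Ndufaf8 to 12.2 CPM for Ndufaf1 in control RPE, with a sum of 364 CPM in control and 345 in Dox. They were 1.45-fold and 1.39-fold above fibroblast-like cells.

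In complex II, Sdhb, the iron-sulfur subunit (chromosome 4, 140961203 to 140979193), had the highest level of the 4 genes in RPE, at 213 and 214 CPM. Sdha, the flavoprotein that oxidises succinate, was lowest at 113 and 116 CPM. Both membrane anchors were near it, Sdhc at 117 and 127 and Sdhd at 127 and 126 CPM. Sdhc, Sdha and Sdhb were higher in smooth muscle-like cells than in RPE. Those cells had 174 and 183 CPM of Sdhc, 158 and 164 of Sdha and 224 and 218 of Sdhb. The levels of the 4 genes in RPE thus spanned a narrow range, in contrast to the other complexes.

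In complex III the small subunits led. Uqcr11 (chromosome 10, 80402997 to 80406830) had 1047 CPM in control RPE and 1045 in Dox-RPE, against 324 and 320.4 in fibroblast-like cells. Uqcrq had 770.2 and 816 CPM against 214 and 216. The subunits that carry the redox centres or the structural core were lower. Uqcrfs1, the Rieske iron-sulfur protein, had 272 and 269 CPM, Cyc1, the cytochrome that passes electrons to cytochrome c, 173 and 177, and Uqcrc2, a core protein, 136 and 142. Uqcrh, the hinge protein that binds near Cyc1, was the exception among the small subunits. Its 574 and 569 CPM in RPE lay below the control levels of smooth muscle-like cells (691) and NK or T-like cells (689).

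Complex IV held the most highly expressed gene of all. Cox8a (chromosome 19, 7215153 to 7217616) had 2985 CPM in control RPE and 2971 in Dox-RPE, against 1028 and 1029 in fibroblast-like cells. Ndufa4, a complex IV subunit despite its symbol, had 1671 and 1669 CPM against 441 and 459, and Cox4i1 had 1581 and 1653 against 929 and 911. Cox7a2l, a gene linked to the joining of complexes III and IV into supercomplexes (chromosome 17, 83501918 to 83517330), ran the other way. Its role in these mice was not tested. Cox7a2l was lower in RPE, with 113 and 107 CPM, than in each of the other 6 main classes, which ran from 175 to 294 CPM in control. It was at least 1.5-fold lower against all 6 in both libraries.

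In complex V, Atp5g3, a gene for the proton-carrying ring subunit, was highest in control RPE (1189 CPM, and 1246 in Dox-RPE), and Atp5o, which links the catalytic head to the stalk, was lowest (304 and 328). The largest excess of RPE was in small subunits of the membrane part. Atp5mpl had 1187 and 1105 CPM against 261 and 259.5 in fibroblast-like cells, log2 ratios of 2.19 and 2.09, and Atp5k had 729 and 643 against 200.1 and 176. The catalytic subunit Atp5b, in contrast, had 599 and 641 CPM in RPE, 375 and 379 in fibroblast-like cells and 933 and 942 in smooth muscle-like cells. Atp5b, like Ndufv1 in complex I, was highest in smooth muscle-like cells in both libraries. Not all core subunits of complex I followed this, as Ndufs3 and Ndufv2 were highest in RPE in both libraries.

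The paired isoforms separated the classes more sharply than the complexes did. For Cox8, the start regions of both genes are printed because the pair differs between RPE and all other classes, and those of the Cox7a pair because Cox7a1 had the highest Dox to control ratio. Each stretch runs from 250 bases before to 50 bases after the gene start, 5′ to 3′ on the gene's strand, and was taken from RefSeq on GRCm38.p6. Capitals mark the letters CTTCCGG, the reverse complement of the GABPA motif CCGGAAG.
Cox8b (chr7:140900397-140900696, minus strand): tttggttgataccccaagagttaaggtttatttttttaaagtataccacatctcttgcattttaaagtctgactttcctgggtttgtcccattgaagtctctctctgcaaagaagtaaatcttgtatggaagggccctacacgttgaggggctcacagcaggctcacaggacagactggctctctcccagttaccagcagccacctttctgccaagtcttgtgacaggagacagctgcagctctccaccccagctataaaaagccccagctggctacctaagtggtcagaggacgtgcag
Cox8a (chr19:7217567-7217866, minus strand): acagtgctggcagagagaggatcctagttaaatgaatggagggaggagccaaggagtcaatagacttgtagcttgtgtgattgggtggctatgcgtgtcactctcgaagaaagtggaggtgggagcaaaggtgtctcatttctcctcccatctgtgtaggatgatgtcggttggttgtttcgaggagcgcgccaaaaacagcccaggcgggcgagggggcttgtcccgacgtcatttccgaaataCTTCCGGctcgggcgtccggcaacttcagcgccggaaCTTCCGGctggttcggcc
Cox7a1 (chr7:30183921-30184220, plus strand): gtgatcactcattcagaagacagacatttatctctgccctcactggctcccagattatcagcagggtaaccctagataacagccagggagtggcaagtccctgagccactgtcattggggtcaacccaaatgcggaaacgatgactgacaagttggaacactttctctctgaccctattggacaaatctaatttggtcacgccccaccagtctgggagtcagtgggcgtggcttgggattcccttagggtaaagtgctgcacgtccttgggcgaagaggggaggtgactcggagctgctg
Cox7a2 (chr9:79759804-79760103, minus strand): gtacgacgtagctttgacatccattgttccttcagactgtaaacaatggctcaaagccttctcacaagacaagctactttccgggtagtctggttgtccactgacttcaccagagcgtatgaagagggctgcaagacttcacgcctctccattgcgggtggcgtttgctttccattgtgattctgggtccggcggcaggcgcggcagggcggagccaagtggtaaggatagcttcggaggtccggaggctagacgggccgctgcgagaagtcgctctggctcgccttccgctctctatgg
The isoforms of wide expression had 19 (Cox8a) and 20 (Cox7a2) CG pairs in this window, and the muscle isoforms 2 (Cox8b) and 7 (Cox7a1). Over the 76 genes of the set found in the table the median was 20 CG pairs (2 to 43), and over all 27025 genes of the table it was 8 (0 to 67). Cox8b had the fewest of the 76.

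Cox8b (chromosome 7, 140898945 to 140900446), the subunit 8 isoform known from heart, skeletal muscle and brown fat of rodents, made up 20.1% (19.8 to 20.3) of the pair's UMIs in control RPE, at 750.0 CPM. In Dox-RPE it made up 24.7% (24.4 to 24.9), at 973 CPM. The other 6 main classes had between 31.0 and 42.2 CPM in control and between 49.5 and 97.8 in Dox. That low level tracked Rpe65 in the same classes. The fibroblast-like cells held Cox8b at 4.18% and Rpe65 at 4.01% of the RPE level in control, and at 5.65% and 5.60% in Dox. Per Rpe65 UMI there were 0.151 (0.149 to 0.153) Cox8b UMIs in control RPE and 0.158 (0.150 to 0.165) in fibroblast-like cells, and 0.20 (0.197 to 0.202) and 0.202 (0.194 to 0.210) in the Dox library. Of the other 5 main classes, all had intervals that held the RPE ratio of their library except Dox macrophage-like cells, with 0.268 (0.218 to 0.327). The unnamed cluster with Cd209a among its leading genes had a control value of 0.125 (0.086 to 0.176) and a Dox value of 0.273 (0.201 to 0.364). Droplets led by Hbb-bs, a hemoglobin gene, had 0.186 (0.166 to 0.207) and 0.212 (0.196 to 0.229). The Dox value of that cluster and the control value of the droplets thus also lay above the RPE. In the classes whose interval held the RPE ratio, the low Cox8b level was not read as expression, and in the others its source was not tested. Genes of striated muscle (chosen after these values had been seen) were near 0 in RPE: Acta1 had 0 UMIs in control and 4 in Dox, Ckm 9 and 0, Mb 0 and 1, Myh4 0 and 0, and Mylpf 44 and 66.

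**Figure D2:**
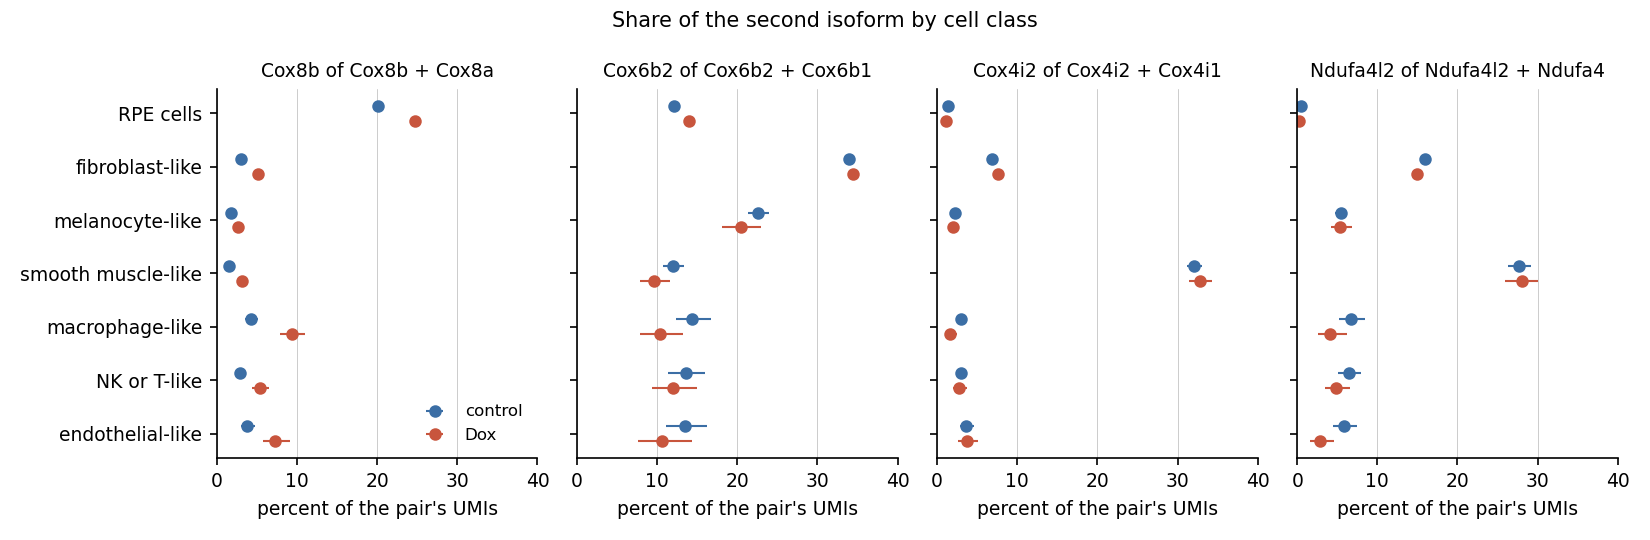
Share of the second isoform in the UMIs of its pair (x axis, percent, 0 to 40 in every panel) in 7 cell classes, control in blue and Dox in red, with 95% exact binomial intervals of counting error. Cox8b takes its largest share in RPE cells (20.1% and 24.7%), Cox6b2 in fibroblast-like cells (34.0% and 34.4%), and Cox4i2 and Ndufa4l2 in smooth muscle-like cells (32.1% and 32.8%, 27.7% and 28.0%).

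Cox8b was also the most uneven gene of the set among RPE cells. With each cell thinned to 5000 UMIs (1340 control and 1428 Dox cells, 186 and 202 left out), its variance was 7.61 times its mean in control and 8.15 times in Dox. The next genes were Cox8a, at 2.25 and 2.60 times, and Ndufa4, at 2.15 and 2.39 times, and the median of the 78 genes with a mean of at least 0.5 UMIs was at most 1.28 times in either library. At a mean of 3.58 and 4.60 Cox8b UMIs per thinned cell, 33.2% and 25.8% of the cells held none, where a Poisson count of that mean leaves 2.80% and 1.01% at 0. Before thinning, the median RPE cell had 295 CPM of Cox8b in control and 391 in Dox, the 25th percentile was 44.6 and 89.0 CPM, and the 75th was 924 and 1167. Cox8a, by contrast, was at 0 in 1.31% and 2.15% of the cells, with medians of 2874 and 2835 CPM.

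**Figure D3:**
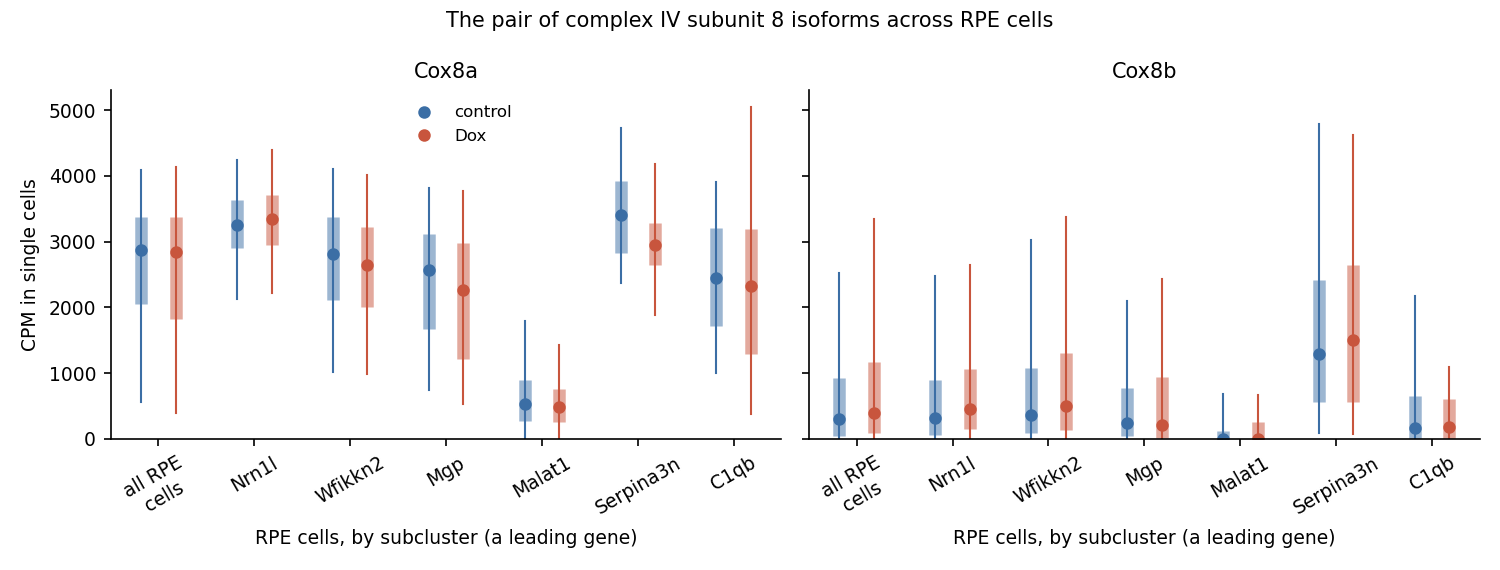
CPM of Cox8a (left) and Cox8b (right) in single RPE cells (y axis), for all RPE cells and for 6 subclusters named by a leading gene, control in blue and Dox in red. Points are medians, thick bars run from the 25th to the 75th percentile and thin lines from the 5th to the 95th. Cox8b medians are highest in the Serpina3n subcluster, at 1284 and 1501 CPM.

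The other pairs marked other cell types. Cox4i2 (chromosome 2, 152754173 to 152765037), an isoform known to respond to low oxygen, had 597 CPM in control and 613 in Dox in smooth muscle-like cells, or 32.1% (31.2 to 33.1) and 32.8% (31.4 to 34.3) of the Cox4 pair. In RPE it had 22.6 and 18.7 CPM, or 1.41% and 1.12%. Ndufa4l2 (chromosome 10, 127514967 to 127517154), a hypoxia-inducible relative of Ndufa4, showed the same preference, with 228 and 229.6 CPM in smooth muscle-like cells. Of these cells, 46.1% and 39.3% held a UMI of Ndufa4l2. The class may include pericytes, and which of its cells hold Cox4i2 or Ndufa4l2 was not tested. Fibroblast-like cells had 83.4 and 81.3 CPM of it, and RPE 8.17 and 4.33 CPM, the lowest of the 7 main classes in both libraries. In control, 8.78% of RPE cells held a UMI of it, against 6.35%, 8.49% and 6.91% of macrophage-like, NK or T-like and endothelial-like cells. The RPE cells held more UMIs in all, at a median of 16013.5 against 2738.5, 3751 and 3634.5. Whether these low levels are background in the droplets was not tested. Cox6b2 (chromosome 7, 4751792 to 4753094), known as a testis isoform, was instead highest in fibroblast-like cells, with 169 and 171 CPM or 34.0% and 34.4% of the Cox6b pair. Melanocyte-like cells were near them at 154 and 153 CPM, and RPE had 78.9 and 93 CPM. Cox7a1, the muscle isoform of Cox7a2, was low in all classes, with its highest level in RPE at 18.7 and 34.3 CPM. A check for background was made for Cox8b only.

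Cox6a2, the muscle isoform of Cox6a1 (chromosome 7, 128205435 to 128206387), had 0 UMIs in control RPE, where 3 UMIs are the limit that a count of 0 allows, and 2 in Dox-RPE. Most of its UMIs in control came from the small unnamed cluster with Cd209a among its leading genes. In control 117 Cox6a2 UMIs lay in 10 of its 255 cells, with 1 to 29 in each, and in Dox 6 UMIs lay in 1 of 161 cells. Elsewhere macrophage-like cells had 7 UMIs in control and 1 in Dox, NK or T-like cells 6 and 1, and fibroblast-like cells 4 and 0. Siglech, a receptor of plasmacytoid dendritic cells, was present in 10 of these 10 control cells with 153 UMIs, against 11 UMIs in the remaining cells of the cluster. Ccr9 had 52 UMIs in the 10 cells and 3 in the rest, and Klk1 70 and 0. These 3 genes were looked up after the Cox6a2 cells had been seen. The Dox cell held 15 UMIs of Siglech and 9 each of Ccr9 and Klk1.

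The next comparison asks whether any of these genes differed between Dox-RPE and control RPE. The summed level of the 85 subunit genes differed by a log2 ratio of 0.01 (0.00 to 0.01). A gene was counted as higher when its CPM in Dox was at least 25% above control, and as lower when it was at least 20% below, which is the same fold in either direction. Of 92 genes, 2 were higher in Dox-RPE, against 4.67% of all 12774 genes tested, and 1 was lower, against 10.3% of all genes. These shares cover genes of any level with at least 50 UMIs and were not matched to the set by level. Genes with few UMIs pass such limits more easily through counting error. A count below the share therefore does not show that the set was steadier than other genes. Cox7a1 had the highest ratio, with 18.7 CPM (17.1 to 20.5) in control and 34.3 (32.3 to 36.4) in Dox, a log2 ratio of 0.87 (0.72 to 1.03). Cox8b followed, from 750.0 CPM (739.6 to 761) to 973 (962 to 984), a log2 ratio of 0.37 (0.35 to 0.40). Ndufa4l2 was the gene on the low side, with 8.17 CPM (7.11 to 9.34) in control and 4.33 (3.63 to 5.12) in Dox, a log2 ratio of -0.92 (-1.24 to -0.60). All 3 are isoforms of complex IV subunits. The counts were the same, 2 and 1, without the cells whose barcodes both libraries held. Not all 3 genes passed in every setting: Cox8b had 0.22 without the Serpina3n subcluster of RPE cells described below, and Cox8b and Ndufa4l2 had 0.20 and -0.22 with the Dox subclusters weighted by the control library's shares, all inside the limits.

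**Figure D4:**
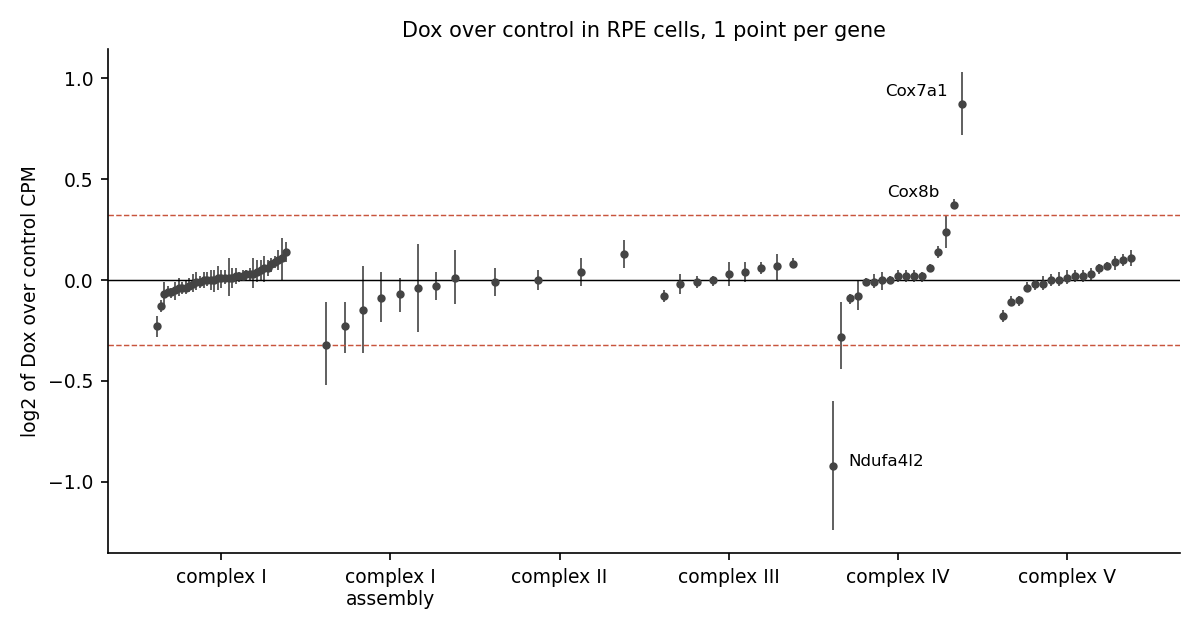
Log2 ratio of Dox over control CPM in RPE cells (y axis) for each of 92 genes, sorted within its complex (x axis), with 95% intervals of counting error. Dashed lines mark 25% above and 20% below control, and the 3 genes past them are named, with Cox7a1 at 0.87, Cox8b at 0.37 and Ndufa4l2 at -0.92.

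The other 89 genes lay within these limits. The median log2 ratio of the 92 was 0.00, against -0.01 for all genes, and 50 of the 92 lay above 0. No share of all genes above 0 was made, for this count or for that of the assembly factors below. The medians were 0.01 in complex I (37 genes, -0.23 to 0.14), 0.02 in complex II (-0.01 to 0.13), 0.03 in complex III (-0.08 to 0.08), 0.02 in complex IV and 0.01 in complex V (-0.18 to 0.11). No complex therefore stood out as a whole. The 8 assembly factors of complex I had a median of -0.08 (-0.32 to 0.01), with 1 of 8 above 0. Among them Ndufaf6 went from 15 to 12.1 CPM (log2 ratio -0.32, -0.52 to -0.11) and Ndufaf2 from 39.5 to 33.7 CPM (-0.23, -0.36 to -0.11). The next genes above 0 were Cox6b2 (0.24, 0.16 to 0.32), Cox6a1, Ndufa12 (0.14 each) and Sdhc (0.13). On the low side Ndufb1-ps had -0.23 and Atp5k -0.18. Cox4i2 had -0.28 (-0.44 to -0.11) over all RPE cells, but -0.04 at the control library's subcluster shares, 0.16 without the Mgp, C1qb and Malat1 subclusters and 0.32 (0.04 to 0.62) within the main subcluster.

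In the other classes few genes passed these limits, beside shares of all genes that were again not matched by level. In fibroblast-like cells 1 of 92 genes was higher in Dox, Cox8b with a log2 ratio of 0.81, and 0 were lower, where 4.95% of all genes were higher and 6.37% lower. Smooth muscle-like cells had 2 higher (all genes 13.0%) and 2 lower (12.1%), with Cox8b at 1.12. Melanocyte-like cells had 2 (13.3%) and 2 (13.1%). Of 88 genes tested in each, macrophage-like cells had 3 (14.1%) and 6 (16.8%), NK or T-like cells 1 (12.1%) and 3 (18.3%), and endothelial-like cells 4 (14.0%) and 6 (15.9%). Cox8b was among the higher genes in each of these 6 classes, where its ratio to Rpe65 held to that of the RPE as given above, except in Dox macrophage-like cells. Ndufa4l2 was among the lower genes in macrophage-like, NK or T-like and endothelial-like cells. It had 25.3, 35.8 and 32.5 CPM there in control and 16.4, 27.5 and 17.0 in Dox. Cox7a1 was among the higher genes in smooth muscle-like cells, with 10.6 CPM in control and 14.6 in Dox. Cox6b2 was among the lower genes in smooth muscle-like, macrophage-like and endothelial-like cells, whereas its ratio in RPE lay above 0. In those classes Cox6b2 had 56.9, 58.8 and 54.5 CPM in control and 44.7, 42.3 and 40.4 in Dox. These calls for Ndufa4l2, Cox7a1 and Cox6b2 rested on 16 to 273 UMIs per library. The control and Dox intervals of CPM overlapped in each, which does not show that the levels were equal. Such overlap can occur where the interval of the ratio excludes 0, and the ratio intervals of these calls are not given here. The calls were not read as a repeat of the RPE changes, and whether they are one was not tested. Of 88 genes tested in all 7 classes, 4 lay above 0 in every class (Atp5c1, Cox8b, Uqcr10 and Ndufs6) and 4 below 0 (Uqcrh, Ndufb1-ps, Cox7c and Atp5md), or 4.55% each, against 3.07% and 3.09% of 5669 genes. The 7 ratios share the same 2 libraries. Cox8b is in the first of these counts, although outside the RPE its low level was mostly not read as expression, as given above.

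RPE cells were then clustered again without the genes of this set, mitochondrially encoded genes or the other pathway genes described below. The 6 subclusters were named by a leading gene. The Nrn1l subcluster was taken as the main one, with 419 control and 508 Dox cells. Subunit genes summed to 48663 CPM in it in control and 49212 in Dox. The Wfikkn2 subcluster (442 and 431 cells) had 44742 and 42945 CPM, the Mgp subcluster (442 and 306 cells) 41264 and 39669.7, and the C1qb subcluster (58 and 17 cells) 40628 and 40352. The Serpina3n subcluster (58 and 202 cells) was highest in both libraries, with 54009 and 50089.9 CPM. The Malat1 subcluster (107 and 166 cells) was far below the rest, with 12291 and 10601 CPM.

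Cells with RNA of other types lay in some of these subclusters. The Mgp subcluster, led by fibroblast genes, had a summed 4974 and 5097 CPM of fibroblast markers, where the main subcluster had 128 and 84.3. The C1qb subcluster had 7202 and 6696 CPM of macrophage markers, where the main subcluster had 145 and 121. It also had 11526 and 7391 CPM of melanocyte markers, where the main subcluster had 1949 and 1553. The part of these transcripts in the subunit levels was not tested. The Malat1 subcluster held 132659 and 137110.3 CPM of the nuclear RNA Malat1, and a median of 3641 and 4856.5 UMIs per cell, with RPE markers at a summed 51493 and 38738 CPM.

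**Figure D5:**
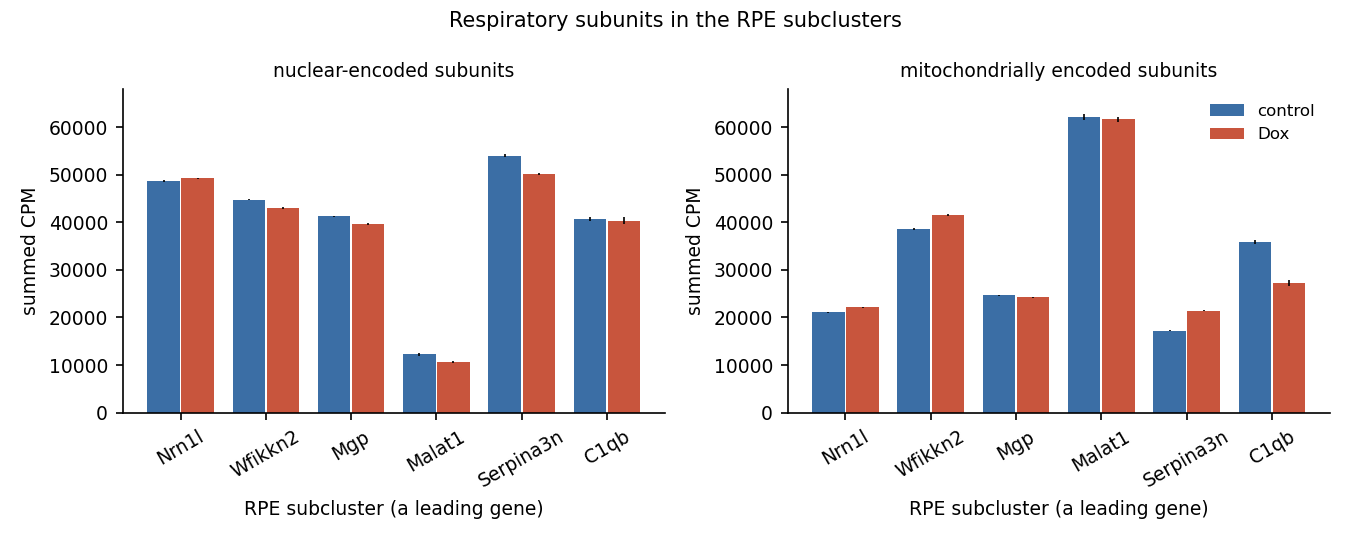
Summed CPM (y axis) of the nuclear-encoded subunit genes (left) and of the 13 mitochondrially encoded subunit genes (right) in 6 subclusters of RPE cells, control in blue and Dox in red, with 95% Poisson intervals of counting error. The Malat1 subcluster has the lowest nuclear-encoded sum, 12291 and 10601 CPM, and the highest mitochondrially encoded sum, 62141 and 61620.1 CPM.

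In the Malat1 subcluster, nuclear-encoded and mitochondrially encoded subunits lay on opposite sides of the main subcluster. Relative to the main subcluster, its nuclear-encoded sum had a log2 ratio of -1.99 in control and -2.21 in Dox, and its mitochondrially encoded sum 1.56 and 1.48. Of 91 genes, 84 were at least 20% lower than in the main subcluster in both libraries and 0 at least 25% higher, where 18.7% of all genes were lower and 53.9% higher. The complexes were not equally low. Complexes I and IV had -2.04 and -2.08 in control and -2.29 and -2.37 in Dox, whereas complex II had -0.89 and -0.94 and the assembly factors -0.94 and -1.11. Smaller shifts in the same directions were seen in 3 other subclusters. The Wfikkn2 subcluster had log2 ratios of -0.12 and -0.20 for nuclear-encoded and 0.87 and 0.91 for mitochondrially encoded subunits. The C1qb subcluster had -0.26 and -0.29 against 0.76 and 0.30, and the Mgp subcluster -0.24 and -0.31 against 0.23 and 0.13. In RPE as a whole the nuclear-encoded sum was 1.63 times the mitochondrially encoded sum in both libraries, and the corresponding ratio was 1.59 and 1.71 in fibroblast-like and 1.04 and 1.29 in macrophage-like cells. Cells with a mitochondrial share of 0.2 or more had been filtered out.

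The Serpina3n subcluster made up 3.8% of control RPE and 12.4% of Dox-RPE cells, or 6.83% and 19.3% of the RPE UMIs. Each gene was scaled within its library before clustering, so a subcluster need not hold cells of the same state in both libraries. Serpina3n itself had 801 CPM in this subcluster in control and 5042 in Dox. In the Dox cells of the Mgp and Malat1 subclusters it had 936 and 766 CPM. Cox8b and Cox7a1 were both highest in the Serpina3n subcluster. Cox8b had 1768 CPM in control and 1752 in Dox, against 621 and 762 in the main subcluster. Cox7a1 had 61.2 and 84.4 CPM, against 14.5 and 23.2. Over the main subcluster, 3 of 91 genes were at least 25% higher in both libraries (Cox7a1, Cox8b and Atp5o), with 9.35% of all genes, and 2 were lower (Cox4i2 and Ndufaf2), with 10.9%. With the Dox subclusters weighted by the control library's shares of UMIs, the log2 ratio of Dox over control was 0.20 for Cox8b and 0.51 for Cox7a1. Without the Serpina3n subcluster it was 0.22 and 0.52. Cox8b then no longer passed the 25% limit, and Cox7a1 did. Both settings were chosen after seeing the data.

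Ndufa4l2 followed another subcluster. It had 24.2 and 22.6 CPM in the Mgp subcluster, with 189 of its 215 UMIs in control RPE and 122 of 135 in Dox-RPE, and 0.678 and 0.246 CPM in the main subcluster. The Mgp subcluster, which also held the pericyte gene Rgs5 at 199 and 179 CPM against 9.27 and 7.97, made up 29.0% of control RPE and 18.8% of Dox-RPE cells. Weighted by the control library's shares, the log2 ratio of Ndufa4l2 was -0.22 and no longer past the 20% limit. It was -1.0 without RPE cells that held markers of another class, -1.43 in the RPE-like cluster alone and -0.72 without the Serpina3n subcluster. Summed fibroblast markers over all RPE cells were 1611 CPM in control and 967 in Dox.

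Over the main subcluster, the Wfikkn2 subcluster had 1 of 91 genes higher in both libraries (Cox8b, all genes 36.0%) and 5 lower (3.76%), among them Ndufb11 and Atp5g3. The Mgp subcluster had 2 of 92 higher (Cox4i2 and Ndufa4l2, all genes 35.5%) and 10 lower (5.47%), and the C1qb subcluster 0 of 91 (28.2%) and 15 (7.53%).

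Within the main subcluster Dox and control differed little. Of 91 genes, 2 were higher in Dox (Cox4i2 and Cox7a1), against 6.30% of all genes, and 0 were lower, against 6.59%. The Wfikkn2 subcluster had 1 higher (Cox7a1, all genes 11.4%) and 1 lower (6.08%), and the Mgp subcluster 0 of 92 (14.2%) and 1 (5.52%). In the Serpina3n subcluster 3 of 91 were higher (Cox6a1, Cox6b2 and Cox7a1, all genes 19.2%) and 8 lower (16.2%). Cox6b2 had 63.4 CPM in control and 131 in Dox there, a log2 ratio of 1.05 (0.76 to 1.34), and Atp5k, a small subunit of the ATP synthase, had 729 and 540.1 (-0.43, -0.53 to -0.34). The mitochondrially encoded sum of this subcluster was 17252 CPM in control and 21372 in Dox, a log2 ratio of 0.31 (0.29 to 0.33), while the nuclear-encoded sum had -0.11 (-0.12 to -0.10). The control arm of it rested on 58 cells and had less Serpina3n than the Dox arm, as given above. The Malat1 subcluster had 4 of 82 higher (20.9%) and 29 lower (17.8%), and the C1qb subcluster 5 of 83 (23.6%) and 5 (19.7%), with 17 cells in Dox. Cox8b passed neither limit within any subcluster.

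Other genes of the pathway also differed little between Dox-RPE and control RPE. Of 43 further assembly factors, 0 were higher in Dox-RPE and 1 lower, Lyrm7, a factor for complex III, with 3.50 and 2.79 CPM (log2 ratio -0.33, -0.77 to 0.11). Among 17 genes of electron carriers and metabolite exchange 0 passed either limit, and Cycs, cytochrome c, had 191 and 213 CPM. Of 12 regulators 1 was lower, Ppargc1b, with 5.51 and 4.33 CPM (-0.35, -0.70 to -0.00). Of the 13 mitochondrially encoded subunits 0 passed, from mt-Atp8 at -0.30 to mt-Atp6 at 0.16. Both counts are read against the 4.67% and 10.3% of all genes given above. Over fibroblast-like cells, 17 of 43 assembly factors, 8 of 17 carriers and 10 of 13 mitochondrially encoded genes were at least 1.5-fold higher in RPE in both libraries, and 0, 1 and 0 were lower. Of the 12 regulators 2 were higher and 4 lower. These counts are read against the 22.2% of all genes that were higher and the 35.9% that were lower in RPE, and the regulators lay near both. Ppargc1a, a coactivator of mitochondrial biogenesis, had 38.5 and 41.0 CPM in RPE against 5.27 and 4.40 in fibroblast-like cells, log2 ratios of 2.87 and 3.22. Melanocyte-like cells were near the RPE, with 33.1 and 33.0 CPM. Esrra, a nuclear receptor that works with Ppargc1a, had 16.6 and 18.4 CPM in RPE against 7.45 and 8.50 in fibroblast-like cells. Melanocyte-like cells had 17.3 and 16.5 CPM of Esrra, and smooth muscle-like cells 22.7 and 25.6, above the RPE. Nrf1, a factor that binds many promoters of respiratory genes, went the other way with 8.36 and 8.69 against 16.9 and 17.3, as did Gabpb1, a subunit of another such factor, with 5.40 and 5.32 against 14.6 and 15.

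The start regions of 76 of the 93 genes were searched on both strands for 4 motifs. The full palindromic NRF1 motif was found in 7 of them (9.21%, against 1.07% of all 27025 genes) and the shorter form TGCGCA in 19 (25%, against 8.79%). The full motif does not contain the shorter form, although the windows that hold them may coincide. The GABPA motif CCGGAAG was found in 19 (25%, against 9.93%), and the YY1 motif AAGATGGCG in 8 (10.5%, against 1.64%), among them Ndufc1, Ndufs4 and Atp5j. Together 40 of the 76 genes (52.6%) held at least 1 of the 4, against 18.4% of all genes. Each of the 4 motifs contains a CG pair, and the 76 genes had a median of 20 CG pairs against 8 over all genes. The shares were not compared at equal CG content. The windows of Cox8b, Cox7a1 and Cox7a2 held none of them, and that of Cox8a held the GABPA motif at 2 places, as marked above.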

How the data were processed

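The authors aligned the 10x 5′ reads to mm10 and counted them with Cell Ranger, whose version the header gives as 4.0.0. The deposited values are raw counts of UMIs per gene and cell. The annotation release is not given in the sources used here. Reads that also fit processed pseudogenes, which many of these genes have, may be missing from the counts.

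Cells with at least 500 UMIs, 200 to 6000 genes, a log10 complexity over 0.8 and a mitochondrial share under 0.2 were kept. No doublet caller was run. Cells were clustered (40 principal components, 20 neighbours, resolution 0.3, 181 pathway genes kept out) with igraph 0.11.9, and clusters were named from marker lists. Before clustering, each gene was scaled within its library. UMIs were summed per class and library, using pandas 2.3.3 and numpy 2.4.6 under Python 3.11.15, and intervals came from scipy 1.17.1. Genes needed 50 UMIs in the classes compared. Shares over all genes were not matched to the set by level. The limits were 25% above or 20% below between libraries or subclusters, and 1.5-fold between classes. Intervals are at 95% and cover counting error only, since nothing replicates a condition. The ratio and interval steps were tested on simulated data.

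Named genes are the highest and lowest per complex, the 10 highest and lowest Dox ratios, the isoform pairs and the genes most uneven between classes. The members and lists were chosen with earlier results of these data known. Positions are from GENCODE vM21 (GRCm38, also called mm10) and start regions from RefSeq. Alternatives covered cell filters, the Rpe65 limit, marker-holding cells, scaling, thinning, gene minimums, folds and clustering resolution. The result of 1 gene is not reported here. Figures were drawn with matplotlib 3.10.9.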

Additional observations from a re-analysis of the deposited data

How the results depend on the processing

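No paired analysis was possible because each condition has 1 library, and no replicate could be left out. The log2 ratio of the summed subunit level in Dox-RPE over control RPE (0.01) was 0.02 without cell filters, 0.01 and -0.01 with at least 20 or 5 Rpe65 UMIs, 0.03 in the RPE-like cluster alone, -0.00 without cells that held another class's markers (1174 and 1431 cells left), -0.03 as the mean of the cells' CPM, -0.04 thinned to 2000 UMIs and 0.02 centred on all genes. Settings added after seeing the data gave 0.00 without the Mgp, C1qb and Malat1 subclusters, -0.01 without the Serpina3n subcluster and -0.03 at the control library's subcluster shares. The sum thus lay within 0.04 of 0 on either side, and its sign was not stable.

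The count of genes lower in Dox (1) was 0 with at least 5 Rpe65 UMIs, 0 without the Mgp, C1qb and Malat1 subclusters (where Ndufa4l2 held under 50 UMIs and was not counted), 0 at the control shares, 2 without marker-holding cells, 3 as the mean of CPM and 4 when thinned, the added genes being Cox4i2 and Ndufaf genes. The count of higher genes (2) was 1 past 1.5-fold, 1 without the Serpina3n subcluster and 1 at the control shares, and it was 3 when thinned (an Ndufaf gene added) and 3 with no minimum above 1 UMI (Cox6a2 added). Over all settings the log2 ratio ran from 0.20 to 0.43 for Cox8b, from 0.51 to 0.98 for Cox7a1 and from -1.45 to -0.22 for Ndufa4l2. Cox4i2 (-0.28) was at 0.16 without the Mgp, C1qb and Malat1 subclusters.

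The fold of RPE over fibroblast-like cells in the subunit sum (2.05) was 2.07 at a mitochondrial share under 0.1, 2.08 without mitochondrial genes, 1.82 as the mean of CPM, 1.87 thinned, 2.12 in the RPE-like cluster and 2.14 with RPE transcripts taken off the fibroblast-like cells, a setting added after seeing the data. The count of genes higher in RPE (58) ran from 46 to 61 and the count of lower genes stayed at 4. The highest subcluster was 4.39 times the lowest, and 4.91 times at a doubled resolution with 10 subclusters. The cause of these shifts was not tested. The lowest of the 3 genes past the limits, Ndufa4l2 and Cox7a1, rest on 135 to 1070 UMIs per library.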
